A study of Mus musculus with 4 samples.

Results

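The receptors described here are 9 genes of the adrenergic and serotonin families, Adra1a, Adra1b, Adra1d, Adra2a, Adra2b, Adrb1, Htr1b, Htr2a and Htr2c, taken by symbol from the 31053 genes of the deposited tables. Their RNA was measured by single-cell sequencing in brain vascular-associated cells, which had been pulled out of dissociated mouse brain by magnetic beads that bind CD31, a surface protein of endothelial cells (EC). All mice were wild-type male C57BL/6 of 12 to 14 weeks, and cerebellum, striatum, brainstem, olfactory bulbs and white matter had been removed from the brains. In the chronic social defeat (CSD) group a mouse lived for 14 days behind a partition from an aggressive CD-1 male that was allowed to attack it for 5 min each day. In the home cage (HC) group the mouse also lived for 14 days beside a CD-1 mouse, but the partition was never removed. Each group has 2 libraries, each a pool of cells from 4 mice, so that n = 2 per group, single mice cannot be told apart and no exact test over libraries can give a p below 0.333.

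Noradrenaline and adrenaline act through adrenergic receptors, and serotonin through its own large receptor family. Almost all of these are G protein-coupled receptors, which pass the signal to Gq (release of calcium from internal stores), Gi (less cyclic AMP) or Gs (more cyclic AMP). In brain vessels such receptors set the tone of smooth muscle, in glia they report the release of noradrenaline during arousal, and in the choroid plexus, the epithelium that secretes cerebrospinal fluid, serotonin acts mainly through the receptor encoded by Htr2c.

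Library totals lay between 27297599 and 30361474 UMIs, where a UMI marks 1 captured mRNA molecule, and 14415 barcodes were kept as cells, 2553 to 4934 per library. Of these, 13002 passed a gate on marker genes into 15 classes, led by EC (34.8% of cells), microglia (31.0%) and choroid plexus cells (11.1%), and 8 classes with at least 10 cells in every library were tested. The receptors were not among the gating markers. Cells close to the limit of their gate, with between 3 and 6 times more marker UMIs of their own class than of the next, made up 5.40% of microglia, 6.92% of EC, 10.4% of smooth muscle cells (SMC), 15.7% of choroid plexus cells and 43.5% of ependymal cells, so that the ependymal class is the least sharply bounded of these. Ependymal cells also carried the choroid plexus markers at 1043 to 1419 CPM (counts per 1000000 UMIs that a class holds in a library). Choroid plexus cells carried them at 5723 to 5962 CPM and SMC at 12.9 to 153 CPM. Astrocyte markers lay at 1101 to 1378 CPM in ependymal cells, 8154 to 12903 CPM in astrocytes and 173 to 343 CPM in microglia. CSD library 2 stood farthest from the others in the total counts of genes, with 32.6% of its UMIs in cells against 51.8% to 56.8%, and pairs of libraries shared 0 to 9 cell barcodes.

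The receptors differed in the class that held them. Htr2c was found in choroid plexus cells, Htr1b in SMC, Htr2a in EC, and Adra1a in ependymal cells and astrocytes. Adrb1 was found in microglia and, at lower mean levels with overlapping ranges, in ependymal cells and astrocytes. Adra1b, Adra2a and Adra2b gave few UMIs, 27, 43 and 12 in gated cells. Those of Adra1b lay mainly in SMC, and Adra1d gave none. No receptor passed the test between CSD and HC in any class. Since 3′ counts are not scaled by length, levels are compared between classes and libraries and not between genes.

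**Figure D1:**
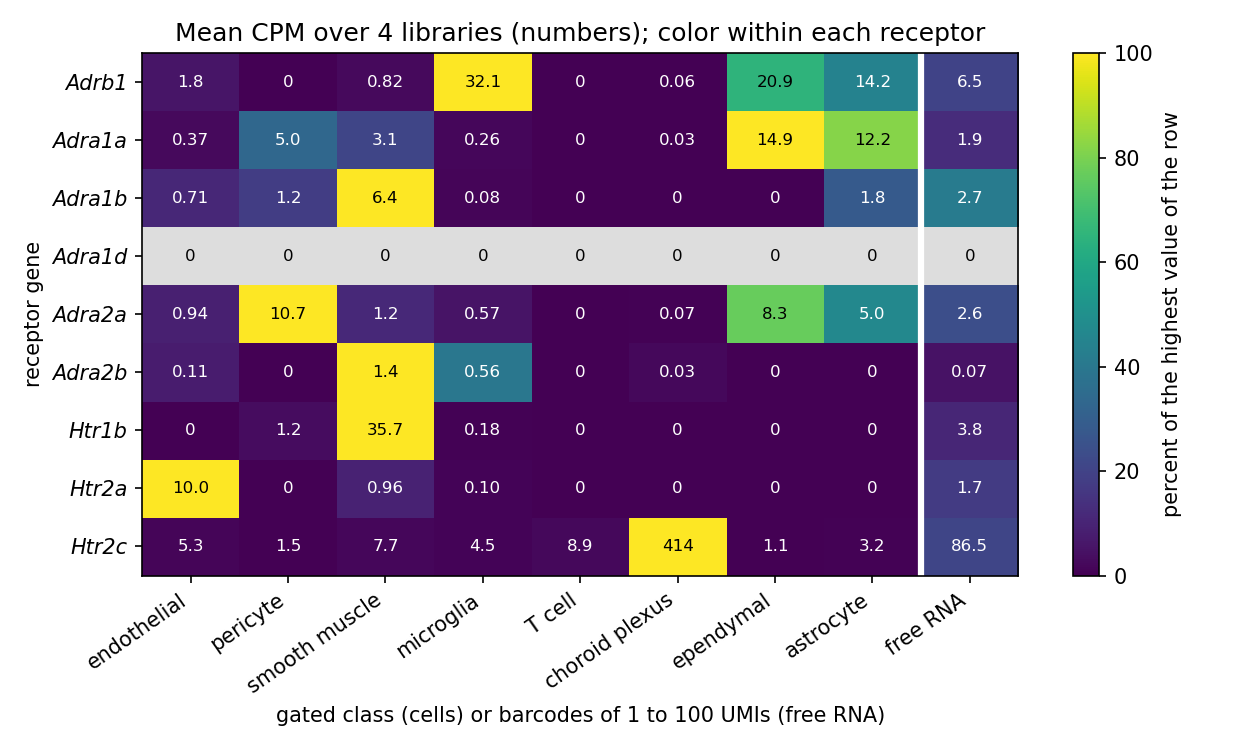
Mean level of each receptor (rows) in the 8 tested classes and in free RNA (columns), as CPM averaged over 4 libraries. The number in a cell is the mean CPM, the color is scaled to the highest value of that receptor, and the grey row is Adra1d, which had 0 UMIs everywhere. The highest class is choroid plexus for Htr2c, SMC for Htr1b, Adra1b and Adra2b, EC for Htr2a, microglia for Adrb1, ependymal cells for Adra1a and pericytes for Adra2a.

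The alpha-1 receptors couple to Gq and contract vascular smooth muscle, and Adra1a also serves as a sensor of noradrenaline on astrocytes. Adra1a (ENSMUSG00000045875) lies on the plus strand of chromosome 14, 66635251 to 66771168, in GRCm38, and its transcripts have 2 to 4 exons. In ependymal cells its level was 18.0 and 13.1 CPM in the CSD libraries and 20.8 and 7.55 CPM in the HC libraries, in the order of their numbers, from 4, 4, 11 and 2 UMIs. The mean was 14.9 ± 5.82 CPM (SD, n = 4), and the CSD libraries lay between the HC libraries. Astrocytes followed with 12.2 ± 10.4 CPM, of which 7 of 9 UMIs came from CSD library 2, and the ranges of the classes overlapped. In pericytes and SMC, the contractile cells of the vessel wall, Adra1a was seen in 4 of 466 and 8 of 491 cells.

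The ratio of Adra1a in ependymal cells to the summed UMIs of the other 7 tested classes was 28.5 (95% counting interval 15.4 to 52.1, from 21 against 28 UMIs). With the library as a block, ependymal cells lay above that sum by 4.31 ± 0.59 on the log2 scale (SE; adjusted p = 3.9e-07, edgeR's quasi-likelihood test with Benjamini-Hochberg adjustment over all genes). Of all genes tested in this way 22.7% were higher in ependymal cells. Adra1a can pass the filter on low counts of this test through its ependymal counts, so this p is no separate support. Of the 50227276 UMIs of all genes in those other classes, 27202892 came from choroid plexus cells. For astrocytes the ratio of Adra1a was 21.9 (95% counting interval 9.36 to 45.9, from 9 against 40 UMIs). With UMIs summed over libraries, its level was 17.2 CPM in astrocytes and 15.9 CPM in ependymal cells. Free RNA, measured in barcodes of 1 to 100 UMIs, held Adra1a at 1.91 ± 0.46 CPM, below each of the 4 ependymal values.

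Adra1b (ENSMUSG00000050541; minus strand of chromosome 11, 43774606 to 43901210, 2 to 5 exons) was highest in SMC. It was measured there at 7.57 and 1.85 CPM in the CSD libraries and 11.5 and 4.77 CPM in the HC libraries, a mean of 6.43 ± 4.12 CPM from 17 UMIs in 16 of 491 cells. In CSD library 2 this was a single UMI, and the value lay within the 1.60 to 3.90 CPM of free RNA. The groups overlapped, and the ratio to the other tested classes was 34.1 (95% counting interval 14.7 to 83.3, 17 against 10 UMIs). Of the 49099854 UMIs of all genes in those classes, 27202892 came from choroid plexus cells, which held no UMI of Adra1b. Adra1b did not reach the filter on low counts in any test.

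Adra1d (ENSMUSG00000027335; minus strand of chromosome 2, 131545850 to 131562283, 2 exons), the third alpha-1 receptor, was not detected in any cell or in free RNA. For SMC, 0 of 491 cells allow a share of cells with a UMI of up to 0.611% and a level of up to 1.23 CPM (3 counts, counting error only). For pericytes, 0 of 466 cells allow up to 0.644% of cells with a UMI. Such limits are on detection, since a cell that expresses a receptor at a low level can give no UMI at these depths. Adra1d overlaps Gm14285 on the opposite strand.

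The alpha-2 receptors couple to Gi. Adra2a (ENSMUSG00000033717; plus strand of chromosome 19, 54044151 to 54048982, 1 or 2 exons), which on noradrenergic neurons limits further release, gave 43 UMIs in gated cells. In ependymal cells its level was 0 and 6.56 CPM in the CSD libraries and 15.1 and 11.3 CPM in the HC libraries, from 0, 2, 8 and 3 UMIs. The CSD values were both lower than the HC values, an order shared by 13.3% of the genes tested in ependymal cells, and the gene was too low to be tested there. Pericytes had the highest mean, 10.7 ± 8.60 CPM, but this rests on 5 UMIs in 5 of 466 cells, with none in HC library 2, and does not differ from the ependymal mean beyond the spread. Among EC, 4 of 173 arterial cells held a UMI of Adra2a against 1 of 3773 capillary cells and 1 of 54 venous cells. Such shares depend on depth, and the median UMIs per cell were 1491 to 3072 in arterial and 871.5 to 1478 in capillary EC. No receptor passed the filter on low counts in the test of arterial against capillary EC, which called 16.7% of genes. Without that filter, the difference of 4.48 ± 1.80 on the log2 scale was not significant in edgeR's test (adjusted p = 0.115).

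Adra2b (ENSMUSG00000058620; plus strand of chromosome 2, 127363208 to 127367221, 1 exon), the alpha-2 receptor of vascular smooth muscle, was seen in 12 gated cells. In SMC it was at 3.78 and 1.85 CPM in the CSD libraries, from 3 and 1 UMIs, and at 0 in both HC libraries. In microglia 6 UMIs came from CSD library 1 and HC library 1. At 4 UMIs no difference between CSD and HC could be detected.

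Adrb1 (ENSMUSG00000035283; plus strand of chromosome 19, 56722199 to 56733113, 1 to 3 exons) encodes the beta-1 receptor, which couples to Gs and in the heart raises rate and force. In microglia its level was 45.6 and 37.6 CPM in CSD libraries 1 and 2 and 25.5 and 19.7 CPM in HC libraries 1 and 2. At least 1 UMI was found in 133 of 1643 and 87 of 642 microglia of the CSD libraries and in 61 of 928 and 44 of 1249 microglia of the HC libraries. Both CSD libraries thus lay above both HC libraries in level.

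In ependymal cells Adrb1 was at 26.95, 13.1, 17.0 and 26.4 CPM in the CSD and then the HC libraries, and 22 of 184 cells held a UMI. The groups overlapped there, and the ependymal range overlapped that of microglia. In astrocytes the CSD libraries held 3 and 7 UMIs, or 31.6 and 25.4 CPM, and the HC libraries none in 43 and 77 cells, which allow up to 6.98% and 3.90% of cells with a UMI. A separation in this direction was found for 12.7% of the genes tested in astrocytes, where Adrb1 itself was too low to be tested between CSD and HC. EC as a whole lay at 1.84 ± 0.96 CPM, below the 6.48 ± 1.20 CPM of free RNA. Arterial EC held 15.3 and 0 CPM in the CSD and 6.57 and 8.06 CPM in the HC libraries, from 4, 0, 1 and 1 UMIs. Without the filter on low counts, arterial EC lay above capillary EC by 2.85 ± 1.30 on the log2 scale. That difference was not significant (adjusted p = 0.200, edgeR). Choroid plexus cells held 2 UMIs in 1595 cells and pericytes none in 466.

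Against the mean of the other classes, Adrb1 was higher in microglia by 5.21 ± 0.33, in ependymal cells by 4.10 ± 0.63 and in astrocytes by 3.88 ± 0.88 on the log2 scale (adjusted p = 1.3e-18, 3.6e-07 and 4.2e-04, edgeR). The astrocyte difference was not significant without CSD library 2 (adjusted p = 0.111), and with the stricter gate Adrb1 did not pass the filter of this test in any class. The shares of all genes called higher in the same contrasts were 39.4%, 31.6% and 20.4%. These fitted differences depend on classes that hold no UMI of Adrb1, such as pericytes and T cells. As a ratio to the summed UMIs of the other tested classes, Adrb1 was 24.6 times higher in microglia (95% counting interval 18.5 to 33.3) and 2.52 times higher in ependymal cells (1.62 to 3.74). Both differences passed edgeR's test (adjusted p = 1.7e-08 and 0.0321), as 35.2% and 22.7% of genes did in the same direction, but the ependymal one not when CSD library 1, HC library 1 or HC library 2 was left out (adjusted p = 0.0692, 0.181 and 0.206). These ratios also depend on choroid plexus cells, which held Adrb1 at a mean of 0.061 CPM. Of the UMIs of all genes in the summed other classes, choroid plexus cells gave 27202892 of 40633484 for microglia and of 50227276 for ependymal cells. Border macrophages, 101 cells at the surface of the brain and its vessels, were too small a class to be tested and are not in these ratios. They held 7 UMIs of Adrb1, at 24.4 and 0 CPM in the CSD and 15.9 and 123 CPM in the HC libraries. This range includes the values of microglia.

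Htr1b (ENSMUSG00000049511; minus strand of chromosome 9, 81628291 to 81633828, 1 or 2 exons) encodes a Gi-coupled serotonin receptor that contracts cranial arteries and is the target of the triptans. Its level in SMC was 50.5 and 51.7 CPM in CSD libraries 1 and 2 and 21.6 and 19.1 CPM in HC libraries 1 and 2. The UMIs came from 30 of 188 and 18 of 62 SMC of the CSD libraries and 13 of 98 and 7 of 143 SMC of the HC libraries, with at most 4 UMIs in a cell. Both CSD libraries lay above both HC libraries, and every SMC value lay above the 2.14 to 5.42 CPM of free RNA.

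Outside SMC, Htr1b was nearly absent from the tested classes. It was found in 1 of 466 pericytes and 2 of 4462 microglia and in none of 5016 EC, which allows a share of EC with a UMI of up to 0.0598%. The ratio of SMC to the summed other classes was 608 (95% counting interval 202 to 3005, 91 against 3 UMIs), and the class difference passed edgeR's test (adjusted p = 5.3e-13), as it did for 21.0% of genes called higher in SMC. Htr1b passed the filter on low counts through SMC alone, so this p is no separate support. Of the 49099854 UMIs of all genes in the other classes, 27202892 came from choroid plexus cells, which held no UMI of Htr1b. In the direct contrast of SMC with pericytes, Htr1b did not reach the filter, and 15.9% of the genes tested were called higher in SMC. D430036J16Rik overlaps Htr1b on the opposite strand.

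Of the 491 SMC, 68 held a UMI of Htr1b and 24 a UMI of Adra1a or Adra1b, and 6 held both, that is 6 of the 68 and 6 of the 24. These shares depend on the UMIs per cell, whose median in SMC was 3486 and 7974 in the CSD libraries and 5988 and 2550 in the HC libraries.

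Htr2a (ENSMUSG00000034997; plus strand of chromosome 14, 74640840 to 74709494, 3 exons) encodes the Gq-coupled receptor known for the action of psychedelics on cortical neurons. In EC its level was 9.40 and 14.9 CPM in CSD libraries 1 and 2 and 9.61 and 6.14 CPM in HC libraries 1 and 2, from 20, 34, 19 and 12 UMIs. Of 5016 EC, 83 held a UMI. The shares were 1.69% and 2.84% in the CSD libraries and 1.94% and 0.687% in the HC libraries, and the groups overlapped. In smooth muscle, where the receptor is known for contraction, 2 of 491 cells held a UMI, none of 466 pericytes did, and free RNA lay at 1.73 ± 0.61 CPM.

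EC lay above the summed other classes by a ratio of 147 (95% counting interval 48.5 to 725, 85 against 3 UMIs; adjusted p = 5.9e-07, edgeR), while 33.4% of genes were called higher in EC. Htr2a passed the filter on low counts through EC alone, so this p is no separate support. Of the 43203259 UMIs of all genes in the other classes, 27202892 came from choroid plexus cells, which held no UMI of Htr2a. Along the vessel the level was 10.2 ± 4.26 CPM in capillary EC and 9.13 ± 6.80 CPM in arterial EC, which differed by less than the spread between libraries. The arterial value comes from 7 UMIs.

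Htr2c (ENSMUSG00000041380; plus strand of chromosome X, 146962513 to 147197277, 3 to 7 exons) encodes the serotonin receptor long known from the choroid plexus, and its introns host several small RNA genes, among them Mir448 and Snora35, on the same strand. Choroid plexus cells held 480 and 308 CPM in CSD libraries 1 and 2 and 445 and 424 CPM in HC libraries 1 and 2. CSD library 2, with 88 choroid plexus cells the smallest, was the lowest, and CSD library 1 the highest. At least 1 UMI was found in 336 of 380, 59 of 88, 284 of 332 and 667 of 795 cells in the same order, and the richest cell held 61 UMIs.

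The choroid plexus cells without Htr2c were mostly shallow. Among cells with 5000 or more UMIs, 99.1% and 93.3% of the CSD and 98.5% and 97.9% of the HC choroid plexus cells held the gene. Among those with fewer UMIs the shares were 28.1%, 10.7%, 39.7% and 33.9%, and the level was 308, 203, 485 and 311 CPM. The level in the shallow cells was therefore at least 203 CPM in each library, above the free RNA of the same library.

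Free RNA held Htr2c at 111 and 19.98 CPM in the CSD libraries and 119 and 96.5 CPM in the HC libraries, and CSD library 2 was the lowest of these as well. All tested classes other than choroid plexus lay below the free RNA of their own library. The means were 7.73 ± 5.11 CPM in SMC, 5.27 ± 3.71 CPM in EC, 4.52 ± 3.51 CPM in microglia and 1.12 ± 2.25 CPM in ependymal cells. A UMI was held by 0.964% of 4462 microglia. Per 1000 UMIs of Ttr, the transthyretin that choroid plexus cells secrete, Htr2c gave 0.690 to 1.07 UMIs in free RNA and 0.970 to 1.54 in choroid plexus cells. The same ratio was 0.658 to 1.57 in EC, 0.373 to 2.67 in microglia and 1.17 to 5.92 in SMC. It lay above that of free RNA in 3 of 4 libraries in EC, in 3 of 4 in microglia and in 4 of 4 in SMC, where it rests on 1 to 6 UMIs per library. Among SMC, 1 cell held all 5 UMIs of HC library 1, and 1 cell held 4 of the 6 UMIs of HC library 2. Among microglia of CSD library 1, 1 cell held 7 of 27 UMIs. Per 1000 UMIs of Enpp2, another gene high in choroid plexus cells, Htr2c gave 22.1 to 28.1 UMIs in free RNA. That ratio was 8.97 to 23.6 in EC, below free RNA in each library, 8.87 to 46.2 in microglia and 18.7 to 76.9 in SMC. The source of these UMIs was not tested. In the test against the mean of the other classes choroid plexus cells were higher by 7.67 ± 0.17 on the log2 scale (adjusted p = 1.2e-38, edgeR), a direction called for 38.9% of genes, and in the ratio to the summed other classes by 90.9 times (95% counting interval 75.8 to 110.0; 37.4% of genes were called higher).

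**Figure D2:**
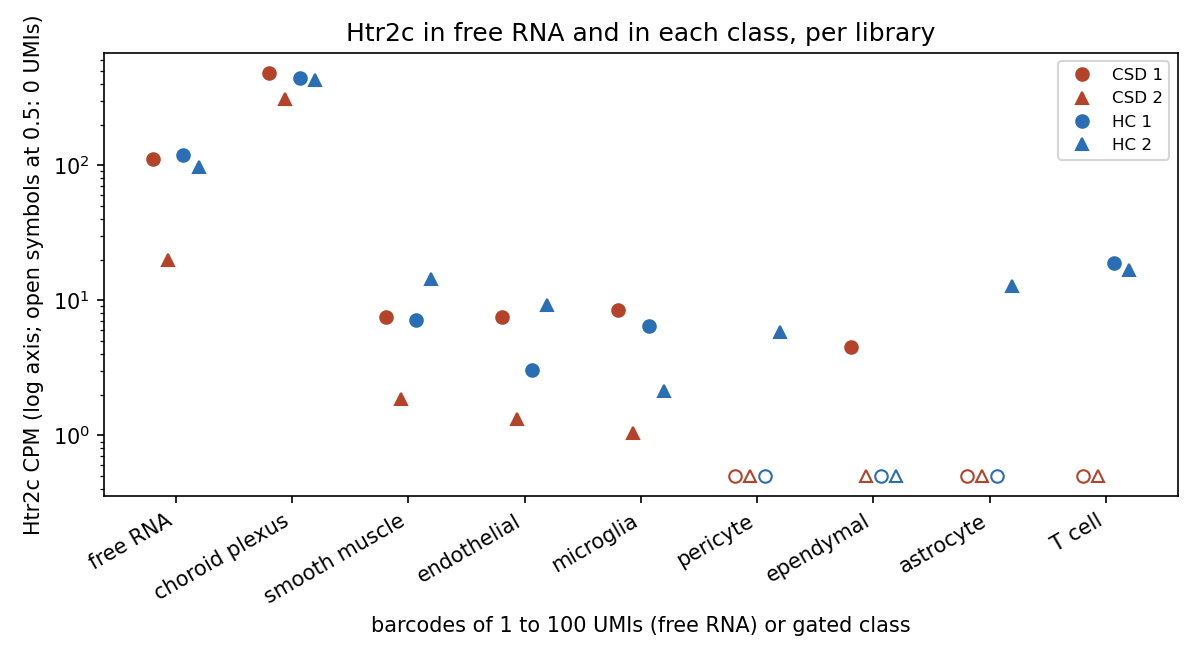
Htr2c level (CPM, log axis) in free RNA, that is in barcodes of 1 to 100 UMIs, and in each of the 8 tested classes, 1 symbol per library. Open symbols drawn at 0.5 stand for 0 UMIs. Choroid plexus cells (308 to 480 CPM) are the only class above free RNA (19.98 to 119 CPM), and CSD library 2 is the lowest library in free RNA, choroid plexus, SMC, EC and microglia.

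The comparison of CSD with HC asked whether the receptors change with chronic stress. Between 714 and 11467 genes were tested per class, and the receptors passed the filter on low counts in 6 receptor and class pairs. None of the 6 was called at an adjusted p of 0.05 by edgeR, and DESeq2 called none of the 4 for which it gave an adjusted p (both pairs in EC had none), where edgeR called 0.0687% of genes in EC, 0.0% in SMC and in microglia and 0.061% in choroid plexus cells. At an unadjusted p of 0.05, 2 of the 6 passed, Htr1b in SMC and Adrb1 in microglia, while 7.64%, 3.12%, 1.21% and 2.95% of genes did so in EC, SMC, microglia and choroid plexus cells.

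Htr1b in SMC had means of 51.1 ± 0.87 CPM in CSD and 20.3 ± 1.78 CPM in HC (SD, n = 2 each), a log2 fold change of 1.27 ± 0.33 (unadjusted p = 0.00142, adjusted p = 0.999, edgeR). These SDs are smaller than the counting error, so they do not measure the spread between pools. The 95% counting intervals were 36.1 to 68.7 and 34.3 to 74.7 CPM in the CSD libraries. In the HC libraries they were 12.1 to 35.6 and 8.24 to 37.6 CPM, and intervals of the 2 groups overlapped. DESeq2 gave 1.29 ± 0.61 (unadjusted p = 0.0338). Of the genes tested in SMC, 16.8% also had both CSD libraries above both HC libraries. After thinning of each cell to 500 UMIs, the share of SMC with a UMI would be 2.29% and 3.15% in CSD and 1.51% and 0.77% in HC. Unthinned, the shares were 16.0% and 29.0% against 13.3% and 4.90%. The immediate-early genes, which rise during dissociation, summed in SMC to 20251 and 26467 CPM in the CSD and 18245 and 28178 CPM in the HC libraries. The glucocorticoid response genes summed to 2420 and 3666 CPM in the CSD and 1879 and 2543 CPM in the HC libraries. The groups overlapped in both sums, and the part of these genes in the result was not tested. Whether the effect on Htr1b differed between SMC and pericytes was tested, with a difference of -2.01 ± 2.37 on the log2 scale (adjusted p = 0.9999, edgeR; 0.0% of genes were called), which rests on 1 pericyte UMI.

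Adrb1 in microglia had means of 41.6 ± 5.67 CPM in CSD and 22.6 ± 4.12 CPM in HC, a log2 fold change of 0.92 ± 0.22 (unadjusted p = 0.00493, adjusted p = 0.9997, edgeR; adjusted p = 0.0404 with the replicate number as a block). With that block 18 of 9974 genes were called in microglia, against 0 without it. DESeq2 without the block gave 0.93 ± 0.42 (unadjusted p = 0.0285). Both CSD libraries lay above both HC libraries, as they did for 8.11% of the genes tested in microglia. The thinned shares of positive cells were 2.31% and 1.73% against 1.14% and 1.04%, the same order of the groups as in CPM. They are expectations from the same UMIs, and the part of depth in the result was not tested. The unthinned shares were 8.09%, 13.6%, 6.57% and 3.52%, and the median microglia had 1896, 4898, 2689 and 1854 UMIs. Immediate-early genes summed to 27522 and 23802 CPM in CSD and 27749 and 23255 CPM in HC microglia, which overlap. The glucocorticoid response genes summed to 2814 and 2316 CPM against 2259 and 1661 CPM, and so lay higher in the CSD libraries as well, although none of the 10 passed the test in microglia. Their part in the result was not tested. The effect on Adrb1 in EC differed from that in microglia by -1.58 ± 0.74 on the log2 scale, which was not significant (adjusted p = 0.99997, edgeR). This fit had no term for the library that both classes share. The mean level in EC, 1.84 CPM, lay below the 6.48 CPM of free RNA.

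**Figure D3:**
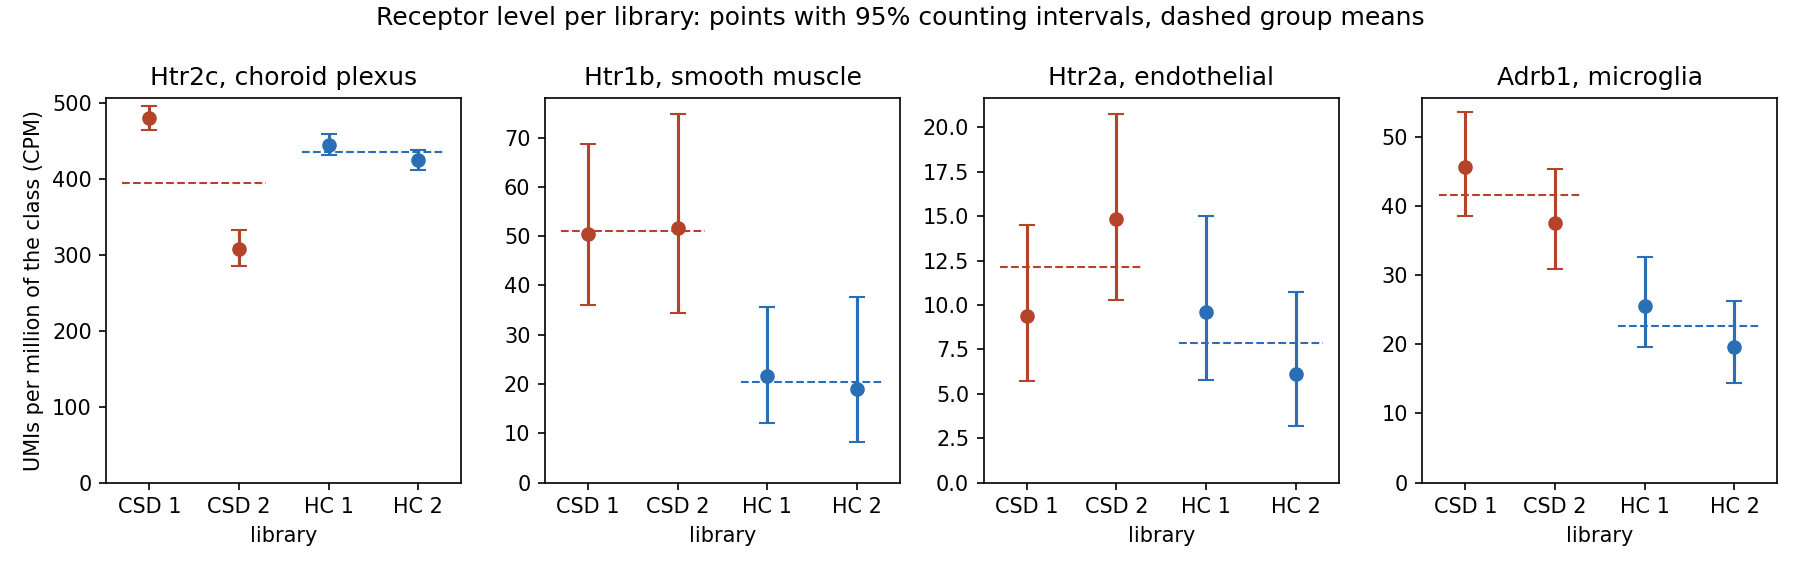
Level (CPM) of Htr2c in choroid plexus cells, Htr1b in SMC, Htr2a in EC and Adrb1 in microglia in each library. Points are libraries with 95% Poisson counting intervals, dashed lines are the means of the 2 libraries of a group, and all axes start at 0. Both CSD libraries lie above both HC libraries for Htr1b and Adrb1, and the groups overlap for Htr2c and Htr2a.

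Htr2a in EC was at 12.1 ± 3.87 CPM in CSD and 7.88 ± 2.45 CPM in HC, and the libraries of the 2 groups overlapped. The log2 fold change was 0.68 ± 0.40 and not significant (adjusted p = 0.767, edgeR). Htr2c in choroid plexus cells was at 394 ± 122 CPM in CSD and 435 ± 14.6 CPM in HC, a log2 fold change of -0.15 ± 0.18 (adjusted p = 0.9999, edgeR). Without CSD library 2 it was 0.10. The remaining pairs were Htr2c in EC (log2 fold change -0.42 ± 0.79) and in microglia (0.16 ± 0.89), both below the level of free RNA in each library. In astrocytes and ependymal cells no receptor passed the filter.

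**Figure D4:**
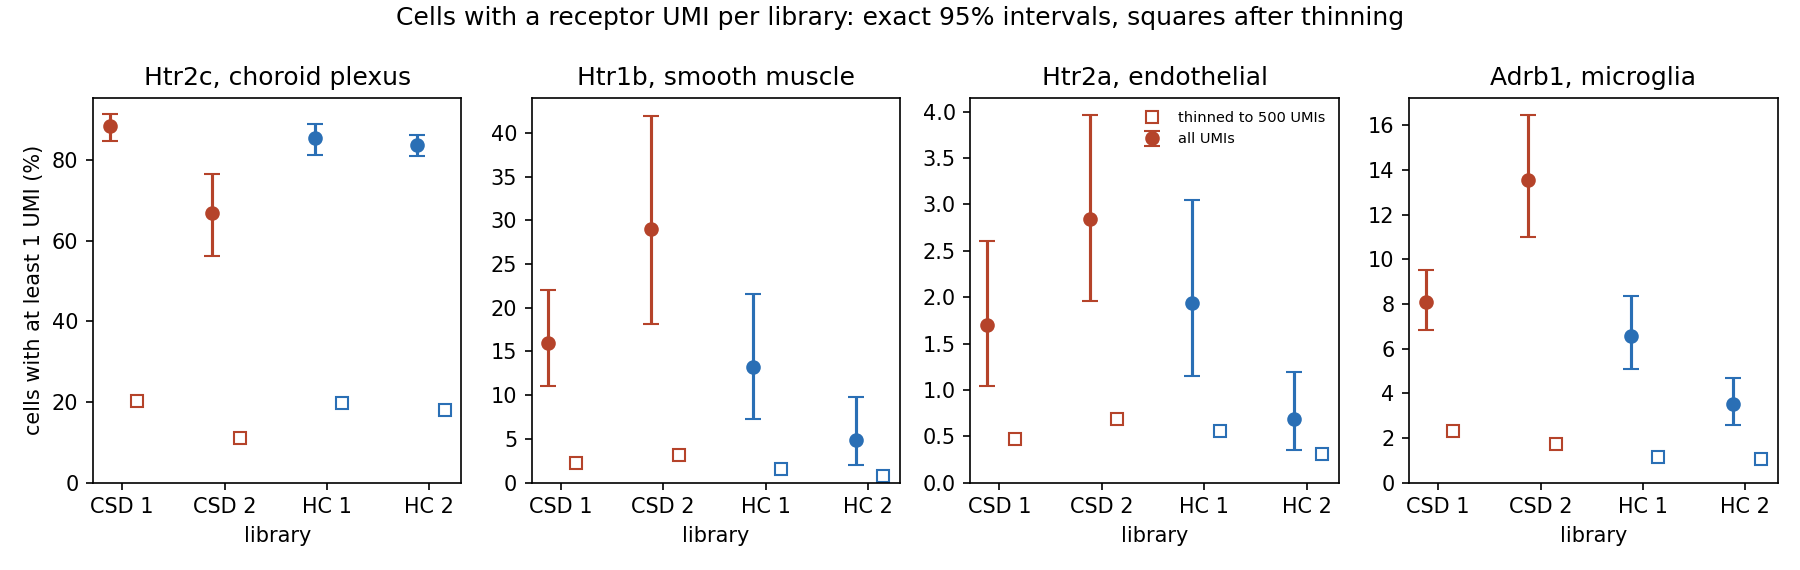
Share of cells with at least 1 UMI of the receptor in each library (percent, axes from 0). Circles are all UMIs with exact 95% Clopper-Pearson intervals, and open squares are the shares expected after each cell is thinned to 500 UMIs. After thinning, the shares are 11.1% to 20.2% for Htr2c, 0.77% to 3.15% for Htr1b, 0.30% to 0.68% for Htr2a and 1.04% to 2.31% for Adrb1.

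The log2 fold changes of Htr1b and Adrb1 kept their sign in each of the 11 alternative settings. Htr1b lay between 1.11 with the stricter gate and 1.40 without HC library 1, and Adrb1 between 0.80 without HC library 2 and 1.08 without HC library 1. Their adjusted p values stayed above 0.05 apart from Adrb1 with the replicate number as a block, where it was 0.0404.

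**Figure D5:**
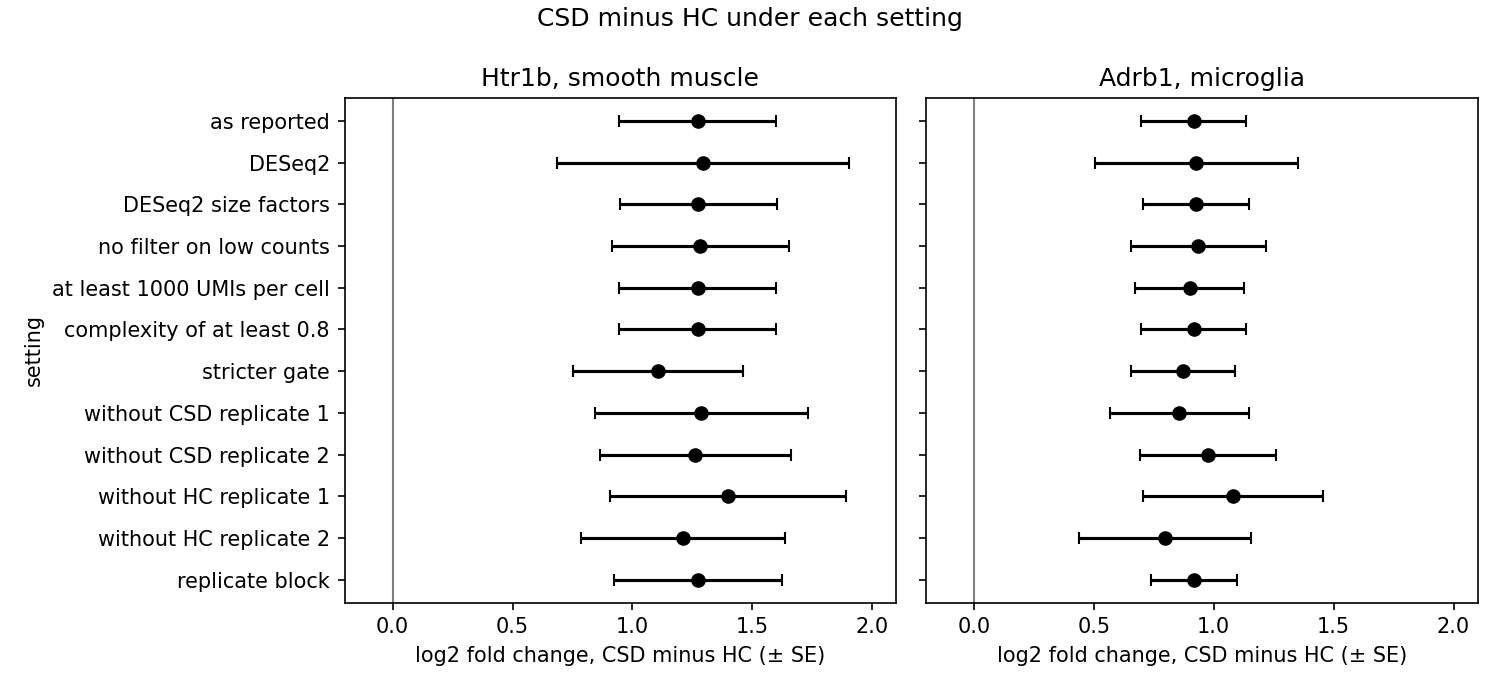
Log2 fold change of CSD minus HC (points, with bars of ± 1 SE) for Htr1b in SMC and Adrb1 in microglia, as reported and under 11 alternative settings (vertical axis). All points lie to the right of 0, between 1.11 and 1.40 for Htr1b and between 0.80 and 1.08 for Adrb1.

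Over single cells, 382 of 4462 microglia (8.56%), 101 of 491 SMC (20.6%), 42 of 184 ependymal cells (22.8%) and 153 of 5016 EC (3.05%) held at least 1 UMI of any of the 9 receptors. At least 2 different receptors were found in 12 SMC, 9 ependymal cells, 6 choroid plexus cells and 5 each of EC and microglia. The counts for SMC, ependymal cells, EC and microglia include Htr2c, which in these classes lay below the level of free RNA. The shares also depend on depth. Median UMIs per cell were 2550 to 7974 in SMC, 3320 to 8296 in ependymal cells, 1854 to 4898 in microglia and 864 to 1466 in EC.

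Among the receptors of both families outside these 9, the 11 other serotonin receptors did not pass the filter of the test between classes. Adrb3 and Htr5b had their highest mean level among the tested classes in ependymal cells, as Adra1a did. It was 19.6 ± 4.34 and 27.02 ± 13.5 CPM, from 27 and 34 UMIs. These 2 genes are named after their values were seen.

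Genes of the signalling routes were counted in each class. Of 16 genes of the Gq route, 14 were tested between classes, and in SMC 6 were higher and 3 lower than in the mean of the other classes. Plcb4, a phospholipase C (log2 2.88 ± 0.15), and Itpr1, a calcium channel of the internal stores (1.34 ± 0.13), were among those higher (adjusted p = 3.0e-23 and 1.2e-12, edgeR). Of all genes, 25.1% were called higher and 11.0% lower in SMC. In EC, where 33.7% of all genes were called higher and 12.7% lower, 7 of the 14 were higher and 3 lower, led by Plcb1 (4.83 ± 0.14) and Plcb4 (2.38 ± 0.14), and in choroid plexus cells 2 were higher, among them Itpr1 (2.43 ± 0.10), and 5 lower, against 38.9% and 22.5% of all genes.

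Of the Gi route, 3 of 5 genes tested were higher and 0 lower in SMC, including Gnai1 (3.97 ± 0.27) and Gnao1 (2.03 ± 0.31), which encode alpha subunits, against 25.1% and 11.0% of all genes. Of the Gs and cyclic AMP route, 12 of 17 were higher and 1 lower in SMC, against the same 25.1% and 11.0% of all genes, led by the phosphodiesterase Pde3a (7.93 ± 0.18) and the adenylyl cyclase Adcy5 (4.24 ± 0.19). In pericytes, 5 of 14 Gq genes, 1 of 5 Gi genes and 8 of 17 Gs and cyclic AMP genes were higher. Lower were 0, 0 and 2, against 1485 higher and 892 lower of 10026 genes tested. In microglia, where 39.4% of all genes were called higher and 17.1% lower, 3 of 17 were higher and 6 lower, with Pde3b (5.94 ± 0.15) and the adenylyl cyclase Adcy7 (4.63 ± 0.28) among the former. Of the genes that end receptor signals, 6 of 10 were higher and 4 lower in microglia, against 39.4% and 17.1% of all genes. The higher ones included the beta-arrestin Arrb2 (4.11 ± 0.13) and Rgs2 (3.93 ± 0.16). In SMC 3 of 10 were higher and 2 lower, the former including Rgs4 (5.12 ± 0.16) and Rgs5 (5.32 ± 0.18), whose products shorten G protein signals. In pericytes 4 of 10 were higher and 1 lower.

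Of 17 genes that make, carry or break down monoamines, 5 were tested. In EC 4 were higher and 1 lower, against 33.7% and 12.7% of all genes, among the former Maoa (4.62 ± 0.16), which degrades serotonin and noradrenaline, and Ddc (7.49 ± 0.24), which makes amines from their amino acid precursors. In choroid plexus cells 3 of the 5 were higher and 0 lower, against 38.9% and 22.5% of all genes, including Slc29a4 (7.38 ± 0.24), a monoamine transporter, and Maob (4.19 ± 0.16). Between CSD and HC, none of the tested genes of these 5 lists passed the test in EC, SMC, microglia or choroid plexus cells. The medians of their log2 fold changes lay between -0.53, for 2 monoamine genes in microglia, and 0.27, for 8 genes of receptor desensitisation in choroid plexus cells, against medians of -0.00196 to 0.00728 over all genes tested in these classes. Of the 12 immediate-early and 10 glucocorticoid response genes, 1 was called between CSD and HC. It was the cell cycle inhibitor Cdkn1a of the glucocorticoid list in EC (1.51 ± 0.16, adjusted p = 0.0241, edgeR), where 0.0687% of all genes were called. In EC, SMC, microglia and choroid plexus cells the medians were 0.57, -0.021, 0.041 and 0.22 for the immediate-early list. For the glucocorticoid list they were 0.77, 0.49, 0.44 and 0.54.

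Across the mean levels of the 15 gated classes (n = 15, log2 of CPM + 5), the genes most like each receptor with at least 30 UMIs were taken from 12608 genes that are not gating markers. The classes come from the same libraries, and several hold fewer than 100 cells, so these coefficients are a description. Htr2c was most like Mfrp (Pearson's r = 0.965), Strip2 (0.963) and Col17a1 (0.962), and Htr1b most like Slit3 (0.991), an axon guidance ligand, Actg2 (0.930), a smooth muscle actin, and Tcap (0.9295). Htr2a was most like Fcor (0.870), Efna1 (0.866), a ligand of Eph receptors, and Taldo1 (0.835), and Adrb1 most like Ntpcr (0.873), Dclre1c (0.871) and Uhrf1bp1 (0.866). Adra1a was most like Cbs (0.914), Pxmp2 (0.911) and Slc1a4 (0.907), and Adra2a most like A830082K12Rik (0.910), Meg3 (0.894) and Kctd17 (0.893).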

How the data were processed

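The authors deposited, for each of 4 libraries (10x Genomics 3′ v3.1 chemistry), UMI counts as whole numbers for every gene in every barcode, before cell calling. The submitters' processing notes name Cell Ranger 4.0 and GRCm38, while the matrix header names 3.1.0 and the methods of the study name a later version. Strand settings are not given in the sources used here. Coordinates are from GENCODE M21 (GRCm38). Barcodes with at least 500 UMIs, 250 genes and at most 25% mitochondrial UMIs were kept. A cell entered the class with the most marker UMIs, if it had at least 3 UMIs of 2 markers and 3 times the next class (stricter gate: 6 times and 3 markers). No doublet caller was run. The 8 classes with at least 10 cells in every library were tested, and venous EC (5 cells at the lowest) were not.

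UMIs were summed per library and class and compared with edgeR 4.0.16 (filterByExpr, TMM, glmQLFTest, two-sided, Benjamini-Hochberg, threshold 0.05; R 4.3.3), between CSD and HC, between classes with the library as a block, and by interaction. The interaction fits had no term for the library. The comparison with the summed other classes was added after the data were seen. In the tests between classes a gene could pass the filter through 1 class alone, so these p values are no separate support. Alternatives were DESeq2 1.42.0, its size factors, no filter, 1000 UMIs per cell, a complexity of at least 0.8, the stricter gate, the replicate block and leaving out each library. Libraries are pools, so p values measure the spread between pools. Intervals (95%, Poisson, Clopper-Pearson or, for ratios, exact conditional) and limits of 3 counts cover counting error only. Thinned shares are hypergeometric expectations at 500 UMIs. The tests were tried on simulated data. Named were all 9 receptors, called members of the other receptor lists (some genes that this rule covers are not reported here), up to 4 members of a pathway list with the smallest p, and the 3 most like genes (at least 100 UMIs) of receptors with 30 UMIs. The members and lists were chosen with earlier results of these data known.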

Additional observations from a re-analysis of the deposited data

How the results depend on the processing

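Between CSD and HC, 0 receptors were called, and 1, Adrb1 in microglia (adjusted p = 0.0404, edgeR), with the replicate block. Of the 9974 genes tested in microglia, 18 were called with the block and 0 without it. The replicate numbers are not known to mark a shared batch, and each group has only 2 libraries, so no pairing was assumed. The deviations of same-numbered libraries correlated at 0.0384 (SMC) to 0.433 (microglia), and above 0.1 in 5 of the 8 classes. The block changed no other receptor call. The number of genes called over all classes moved from 21 to 63 with DESeq2, 139 without the filter, 167 with the replicate block and 61 to 237 when single libraries were left out. The receptor and class pairs called above the mean of the other classes moved from 4 to 10 without the filter and to 1 with the stricter gate, and those above the summed other classes from 6 to 10 without the filter. SMC against pericytes gave 0 receptors called, 1 without the filter and 0 to 1 when libraries were left out (1 without HC replicate 2). Without the filter 1639 of 20970 genes were called higher in SMC than in pericytes and 955 lower. The causes were not tested. Log2 fold changes that changed sign were all of Htr2c, and none was significant. Leaving out 1 library moved them from -2.12 to 0.55 in EC (0.38 without CSD replicate 2 and 0.55 without HC replicate 2), from -1.89 (without CSD replicate 1) to 1.12 in microglia (-0.37 without HC replicate 2), and from -0.48 to 0.10 (without CSD replicate 2) in choroid plexus cells, and the stricter gate gave -0.055 in microglia. Adrb1 lost significance in astrocytes without CSD replicate 2 (adjusted p = 0.111) and in ependymal cells against the summed classes (adjusted p = 0.0321 with all libraries) without CSD replicate 1, HC replicate 1 and HC replicate 2 (adjusted p = 0.0692, 0.181 and 0.206). Mean levels and shares of positive cells moved by less than 1 SD with the stricter gate and with 1000 UMIs per cell for Htr2c in choroid plexus, Htr1b and Adra1b in SMC, Htr2a in EC, Adrb1 in microglia and ependymal cells, and Adra1a and Adra2a in ependymal cells, but the shares of rarer pairs such as Adra1b in EC and Htr2c in astrocytes moved by more with 1000 UMIs per cell. The main limits are 2 pooled libraries per group and few UMIs per receptor.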
